A study of Homo sapiens with 4 samples.

Results

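The nuclear genes for subunits of the respiratory chain and ATP synthase were examined in the human breast cancer line LCC9, which resists tamoxifen and carries wild-type estrogen receptor alpha. The members were taken by symbol (NDUFA, NDUFB, NDUFC, NDUFS and NDUFV genes, SDHA to SDHD, UQCR genes, COX4 to COX8 genes, ATP5A to ATP5L, ATP5O, NDUFAB1, CYC1 and CYCS), which gave 92 of the 23605 symbols in the tables. They comprised 39 lines of complex I, 4 of complex II, 11 of complex III, 19 of complex IV, 18 of complex V and cytochrome c. NDUFA4 and NDUFA4L2, named for complex I, were counted with complex IV, where the NDUFA4 protein resides. One group was treated for 24 h with A7, a compound described as a BRCA1 mimetic (2 libraries), and the other with its vehicle, DMSO (2 libraries). All cells grew in medium without phenol red that held 5% charcoal-stripped serum, a serum poor in steroid hormones, and were a single line in culture. Whether the 2 libraries of a group stem from separate cultures is not stated, and the p-values measure the spread between these libraries, which may be technical.

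The respiratory chain passes electrons from NADH (complex I) and succinate (complex II) through ubiquinone, complex III and cytochrome c to oxygen at complex IV. Complexes I, III and IV pump protons across the inner mitochondrial membrane, and complex V, the ATP synthase, uses the returning protons to make ATP. Complexes I, III, IV and V also hold subunits encoded by mitochondrial DNA, which were not analysed here, whereas all subunits of complex II are encoded in the nucleus.

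Values are FPKM (fragments per kilobase of transcript, set against the library's mapped fragments), divided by a factor per library between 0.990 and 1.02 and called scaled FPKM. Of the 92 members, 85 had a mean FPKM of 1 or more and were tested. Depth read from the steps of low values was roughly 5100000 and 3400000 fragments with A7 and 2500000 in each vehicle library. Of the 8 luminal markers all 8 were tested and summed to 772 to 1017 scaled FPKM with A7 and 914 to 1150 with vehicle. Of the 4 basal markers, KRT5 and KRT14 were at 0 in all libraries and TP63 lay between 0.547 and 1.46. ACTA2 had 11.1 and 11.3 with A7, against 13.7 and 14.6 with vehicle. The list summed to 12.04 to 12.13 with A7 and 14.3 to 16.0 with vehicle, most of it ACTA2. PTPRC, CD3E and HBB were at 0, and the blood and endothelial markers summed to 0.472 to 1.38 with A7 and 0.667 to 1.21 with vehicle. The 5 stromal markers summed to 0.843 to 9.95 with A7 and 0.416 to 0.421 with vehicle, with DCN at 8.40 in A7 replicate 1 and PDGFRB at 0 in all libraries. Whether this library's stromal signal bears on the results was not tested.

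No member passed the limma test across all genes at an adjusted p under 0.05, and the smallest adjusted p among them was 0.806. Over all 8952 tested genes 0.0223% passed (2 genes). At an unadjusted p under 0.05, 3 members were lower with A7 (NDUFB7, ATP5G1 and ATP5O), where 3.55% of all genes were called lower, and 1 was higher (COX5A), where 2.21% of all genes were called higher. With FPKM rescaled to equal totals (TPM) these counts were 0 lower and 7 higher, where 1.07% of all genes were called lower and 8.0% higher. After quantile normalization they were 0 lower and 6 higher, where 2.94% of all genes were called lower and 2.33% higher. A lower mean with A7 was found for 67 of 85 members, against 50.3% of all tested genes. It was also found for 80.9% of the 512 other genes with a mean FPKM of 100 to 1000 and for 91.3% of the 149 at 1000 or more. The members' median log2 difference was -0.15 with quartiles of -0.22 and -0.038, against -0.0019 for all genes. This median was positive (0.076) with TPM, a scaling that moved the median of all genes to 0.17, and was 0 after quantile normalization. In such bulk samples fewer cells of a kind and less RNA per cell cannot be told apart. Groups did not overlap in 36 members with lower values in A7, against 18.6% of all genes, and in 6 members with higher values, against 18.3% of all genes.

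**Figure D1:**
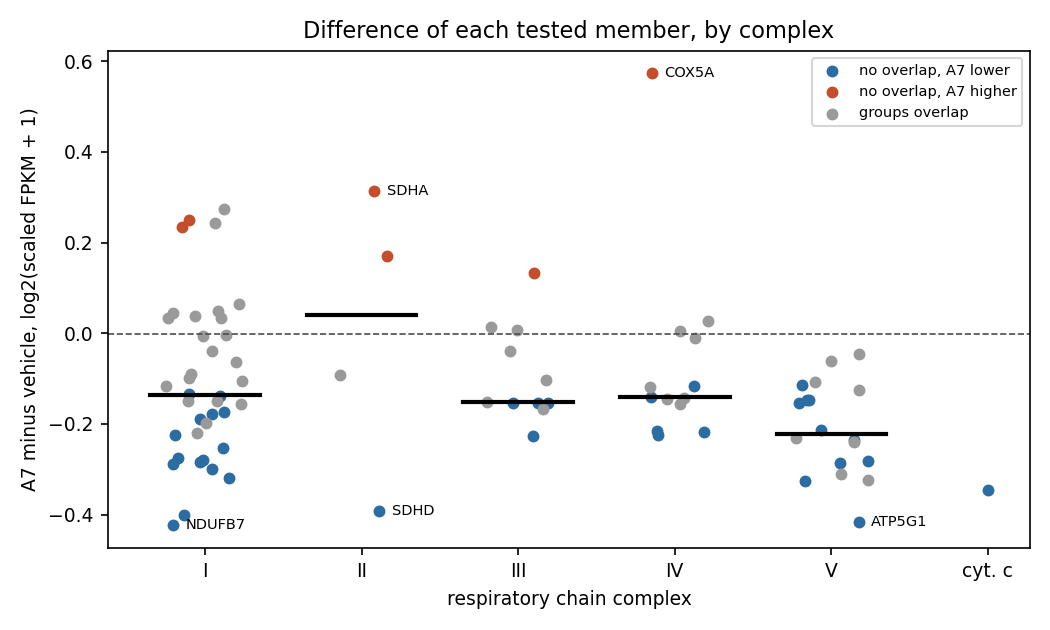
Difference of each tested member (A7 minus vehicle, on log2(scaled FPKM + 1)) by complex, with black bars at the complex medians and a dashed line at the median of all tested genes. The medians of complexes I, III, IV and V lie between -0.14 and -0.22 and that of complex II at 0.040, whereas with TPM the medians of all 5 complexes are above 0 and after quantile normalization only that of complex V is below 0.

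Set against the median of all genes, the medians with TPM were -0.086 for complex I, 0.083 for complex II, -0.10 for complex III, -0.090 for complex IV and -0.17 for complex V. After quantile normalization they were -0.0040, 0.13, 0.018, 0.028 and -0.063, in the same order.

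Other genes of the same abundance were set beside the members. Among members with a mean FPKM of 100 to 1000, 32 of 36 had a lower mean with A7 (88.9%, median -0.15), and among the 512 other genes of that range 80.9% did (median -0.16). At 1000 or more, 17 of 20 members (85%, median -0.16) and 91.3% of 149 other genes (median -0.19) had a lower mean. At 10 to 100, 14 of 23 members (60.9%, median -0.11) and 59.6% of 2540 other genes (median -0.050) did. At 1 to 10, 4 of 6 members (66.7%, median -0.11) and 41.9% of 5666 other genes (median 0.053) did, so in this class the medians differed in sign. The members' share of all summed FPKM was 9.64% and 9.40% in the A7 libraries, against 8.97% and 9.05% in the vehicle libraries. With TPM the members' medians from the lowest to the highest class were 0.0454, 0.115, 0.0765 and 0.0687. Those of other genes were 0.2, 0.164, 0.0688 and 0.0369. After quantile normalization they were -0.163, 0.00243, -0.000881 and 0.00598 for members and 0.0081, 0.00325, 0.0026 and 0.00325 for other genes.

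**Figure D2:**
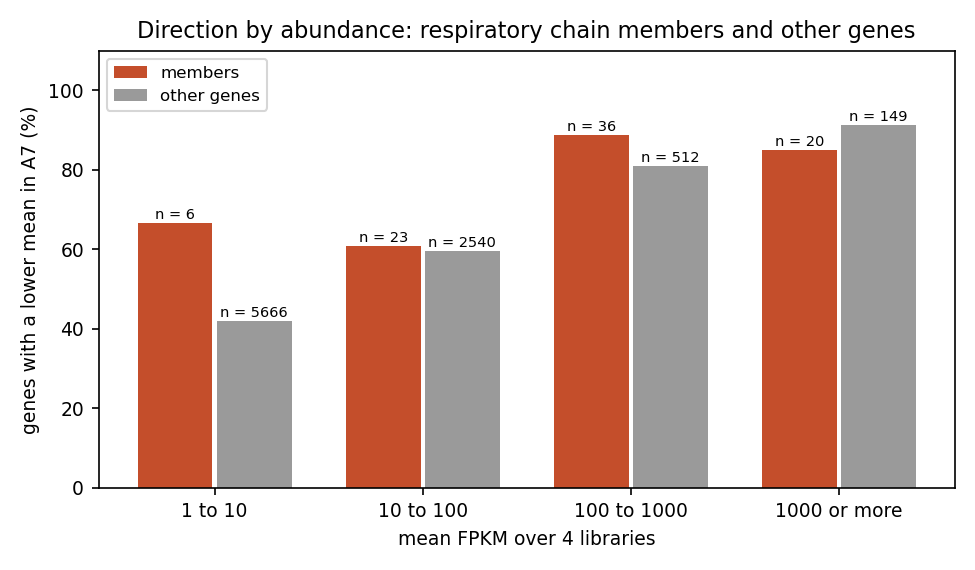
Share of genes with a lower mean in A7 (percent, on median-ratio scaled values), for respiratory chain members and all other tested genes, by mean FPKM over the 4 libraries; n is the number of genes. From the lowest to the highest class the shares are 66.7%, 60.9%, 88.9% and 85% for members and 41.9%, 59.6%, 80.9% and 91.3% for other genes, and with TPM the medians of every class are positive.

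The vehicle replicates also differed from each other. Vehicle replicate 2 exceeded vehicle replicate 1 in 65 of 85 members (76.5%, against 52% of all genes), by a median of 0.12 on the log2 scale. Vehicle replicate 2 was the highest of the 4 libraries for 55 members (64.7%), against 29.9% of all genes. A7 replicate 2 differed from A7 replicate 1 by a median of -0.028. Each A7 library lay below each vehicle library in the median member, with median differences of -0.070 and -0.073 against vehicle replicate 1 and of -0.20 and -0.22 against vehicle replicate 2. Without vehicle replicate 2 the median difference of the members was -0.066, against -0.15 with all 4 libraries.

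**Figure D3:**
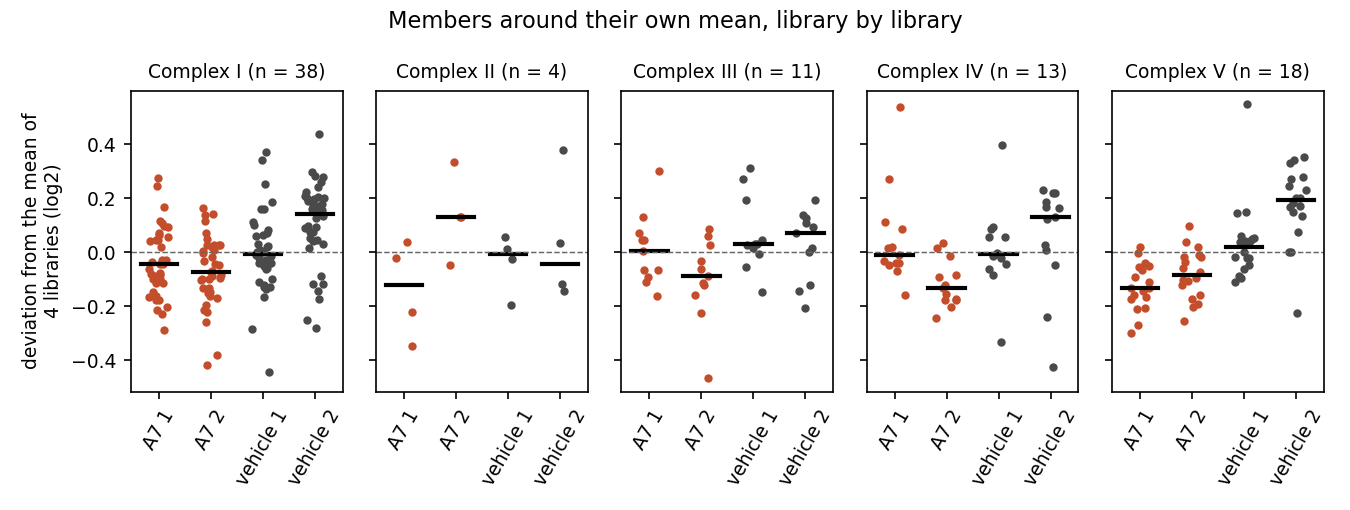
Deviation of each tested member from its own mean over the 4 libraries (log2 scale), by complex and library, with bars at the medians. Vehicle replicate 2 has the highest median in complexes I, III, IV and V (0.14, 0.072, 0.13 and 0.19), whereas in complex II A7 replicate 2 is highest (0.13) and A7 replicate 1 lowest (-0.12).

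Complex I oxidizes NADH and holds 7 nuclear core subunits and many accessory subunits. Most of these core subunits carry the flavin or iron-sulfur clusters or help bind ubiquinone. Of 38 tested lines 28 had a lower mean with A7 and 10 a higher one, with a median of -0.14 that turned to 0.088 with TPM and to 0.0017 after quantile normalization. The median was -0.23 without vehicle replicate 1 and -0.052 without vehicle replicate 2. Groups did not overlap for 15 lower and 2 higher lines of the 38, against 18.6% and 18.3% of all genes. By family, lower means were found in 11 of 13 NDUFA lines, 8 of 11 NDUFB lines, 2 of 2 NDUFC lines, 5 of 8 NDUFS lines and 2 of 3 NDUFV lines, where the 28 of 38 lines in all were 9 of 38 with TPM and 17 of 38 after quantile normalization.

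Core subunits were listed at lower levels than accessory ones. The 7 core genes had mean scaled FPKM of 4.21 (NDUFV1) to 118.5 (NDUFV2) with a median of 25.9, whereas the 30 accessory genes had 8.90 (NDUFA10) to 4105 (NDUFB9) with a median of 223.5. NDUFV1, which binds the flavin that takes electrons from NADH, had 5.08 and 4.23 scaled FPKM with A7, against 2.77 and 4.77 with vehicle. The groups overlapped, and the difference of 0.27 (SE 0.26) was negative without vehicle replicate 1 (-0.033). It rested on roughly 14 and 8.1 fragments with A7 and 3.8 and 6.7 with vehicle, and no difference was detectable at this depth. The core subunit NDUFS3, named after its values were seen, had 25.9 and 18.9 with A7, against 28.6 and 30.4 with vehicle, without overlap (log2 difference -0.40, SE 0.19, limma adjusted p = 0.806).

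Among accessory subunits NDUFB7, of the membrane arm, had 36.3 and 28.5 scaled FPKM with A7, against 44.8 and 42.2 with vehicle. Both A7 libraries lay below both vehicle libraries, and the log2 difference of -0.42 (SE 0.17, 95% interval -0.83 to -0.02) had an unadjusted p of 0.0435 and a limma adjusted p of 0.806. Without A7 replicate 2 it was -0.26. The NDUFB7 values rest on roughly 70 and 38 fragments with A7 and 43 and 41 with vehicle. NDUFA11, a membrane-arm subunit, had 52.5 and 51.6 with A7, against 60.8 and 69.9 with vehicle (log2 difference -0.32, SE 0.14). NDUFC1 had 404 and 373 with A7, against 452 and 490 with vehicle, and NDUFB8 had 187 and 181 with A7, against 231 and 216 with vehicle. Groups did not overlap for these 3 genes (18.6% of all genes were lower without overlap), and each had a limma adjusted p of 0.806. These 4 stayed lower with TPM (-0.20, -0.098, -0.055 and -0.051) and after quantile normalization. NDUFB9, the most abundant complex I transcript, had 3870 and 3691 with A7, against 4087 and 4772 with vehicle. Its difference of -0.22 (SE 0.13) was 9.01e-05 with TPM and 0.0070 after quantile normalization. NDUFAB1, the mitochondrial acyl carrier protein, was named after its values were seen and had 112.4 and 119.9 with A7, against 102 and 94.7 with vehicle, without overlap (0.23, SE 0.13, limma adjusted p = 0.806). The antisense transcript NDUFB2-AS1 stood between 0.966 and 1.31 in all libraries and, without strand information, cannot be told apart from NDUFB2 where they overlap, and the read-through NDUFC2-KCTD14 was listed at values near 0, at most 1.85e-34, and not tested.

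Complex II, succinate dehydrogenase, couples the citric acid cycle to the chain, and its subunits did not share a direction. The flavoprotein SDHA, which oxidizes succinate, had 25.2 and 32.4 scaled FPKM with A7, against 22.1 and 23.5 with vehicle. The iron-sulfur subunit SDHB had 30.6 and 32.7 with A7, against 29.2 and 26.8 with vehicle. Its values rest on roughly 85 and 63 fragments with A7 and 40 and 38 with vehicle. For both catalytic subunits the A7 libraries lay above the vehicle libraries, with log2 differences of 0.31 (SE 0.17) and 0.17 (SE 0.14). The membrane anchor SDHD, which helps bind ubiquinone, had 69.5 and 85.8 with A7, against 89.4 and 115 with vehicle, also without overlap, in the opposite direction (-0.39, SE 0.18). SDHC, the other anchor, had 79.7 and 102 with A7, against 97.1 and 95.4 with vehicle, and the groups overlapped (-0.091, SE 0.16). None passed (limma adjusted p of 0.806 for SDHA and SDHD, 0.845 for SDHB and 0.931 for SDHC). Over all genes, 18.3% were higher and 18.6% lower with A7 without overlap of the groups. The directions of SDHA, SDHB and SDHD were the same with TPM and after quantile normalization. Without A7 replicate 2 the difference of SDHA was 0.14, without A7 replicate 1 it was 0.49, and that of SDHD was -0.24 without A7 replicate 1 and -0.21 without vehicle replicate 2. SDHA is 95.01% identical over 83.9% of its length to the pseudogene SDHAP2, which had 10.9 and 10.3 with A7, against 10.1 and 6.67 with vehicle, and how reads of the pair were divided is uncertain. The sum of SDHA and SDHAP2 was 36.1 and 42.8 with A7, against 32.2 and 30.1 with vehicle (0.33 on the log2 scale). Summed with SDHAP3, a pseudogene that did not meet the limits of the copy search, SDHA had 36.8 and 41.9 with A7, against 34.26 and 38.004 with vehicle, and these groups overlapped (0.12).

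The median of complex II was 0.040 and turned negative (-0.072) without A7 replicate 2. This library exceeded A7 replicate 1 in all 4 subunits, by a median of 0.33.

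**Figure D4:**
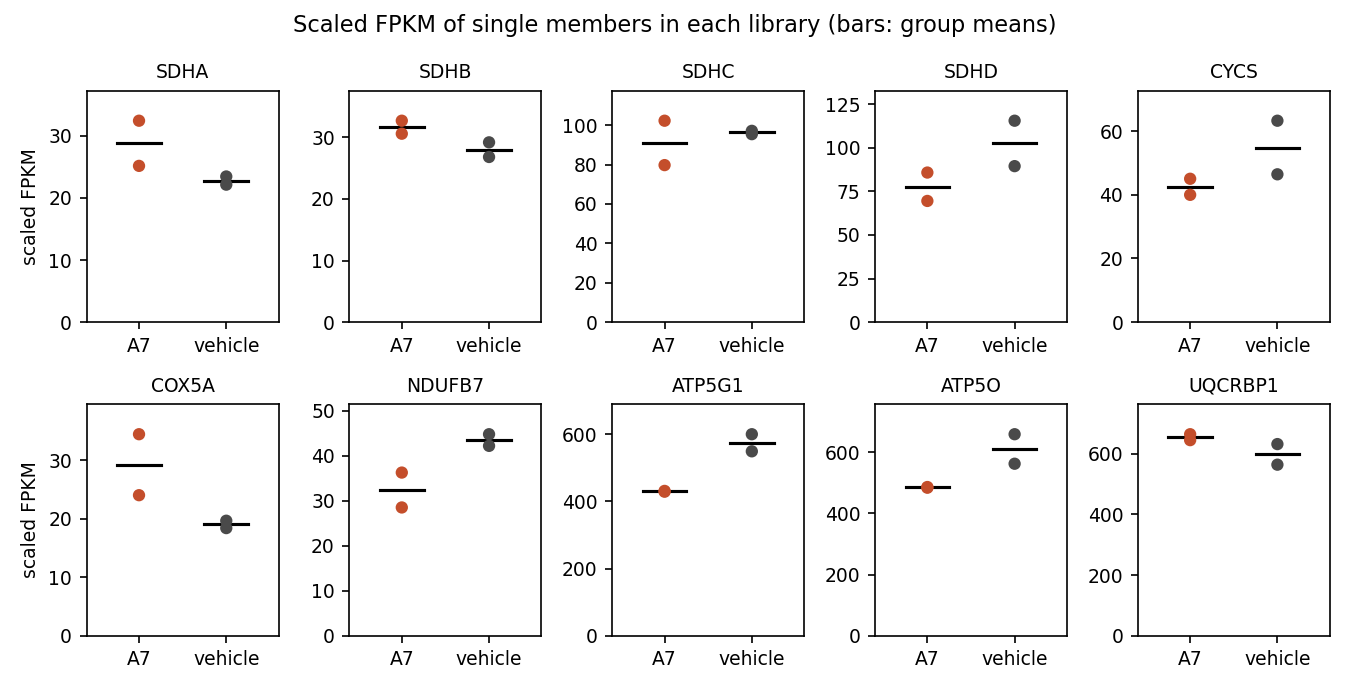
Scaled FPKM of 10 members in each library, A7 left of vehicle, with bars at the group means (n = 2 each). The groups do not overlap for any gene shown except SDHC. A7 is higher for SDHA, SDHB, COX5A and UQCRBP1 and lower for SDHD, CYCS, NDUFB7, ATP5G1 and ATP5O. Of all tested genes 18.3% are higher and 18.6% lower without overlap, and none of the genes shown passed over all genes.

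Promoters of the members were searched for the binding sequences of NRF1, ETS-family factors, YY1 and estrogen-related receptors, which are known to act on respiratory genes, and of the estrogen receptor. Promoters (250 bases before to 50 after the start, RefSeq, build GRCh38.p14) were at hand for 65 of the 79 tested subunit and isoform genes. The 27305 promoters set beside them were not limited to tested genes, so the sets are unlike. The NRF1 sequence was taken as GCGCA and GCGC with any 1 base between them, on either strand. Matches to it were found in 15 of the 65 (23.1%), against 6.28% of the 27305 promoters. They were in 6 of 32 promoters of complex I, 2 of 3 of complex II, 4 of 7 of complex III, 0 of 11 of complex IV and 3 of 11 of complex V. The ETS-family core CCGGAAGT was in 13.8% of members and 4.44% of all promoters, the YY1 sequence AAGATGGCG in 12.3% and 1.85%, the estrogen-related receptor sequence TCAAGGTCA in 1.54% and 0.359%, and the full estrogen response element (GGTCA and TGACC with any 3 bases between) in 0 of 65 and 0.0659%. The 4 promoters below are shown because SDHA and SDHB were higher and SDHD and ATP5O lower in the A7 libraries, with capitals marking matches to the first 4 of these sequences, which do not overlap each other here.
SDHA (chr5:218070-218369, plus strand): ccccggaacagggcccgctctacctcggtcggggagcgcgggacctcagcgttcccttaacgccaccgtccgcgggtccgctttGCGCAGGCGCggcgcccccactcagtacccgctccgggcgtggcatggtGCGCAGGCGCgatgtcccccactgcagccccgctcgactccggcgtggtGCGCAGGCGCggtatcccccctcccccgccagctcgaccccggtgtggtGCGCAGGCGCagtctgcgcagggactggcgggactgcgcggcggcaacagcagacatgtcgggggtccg
SDHB (chr1:17053983-17054282, minus strand): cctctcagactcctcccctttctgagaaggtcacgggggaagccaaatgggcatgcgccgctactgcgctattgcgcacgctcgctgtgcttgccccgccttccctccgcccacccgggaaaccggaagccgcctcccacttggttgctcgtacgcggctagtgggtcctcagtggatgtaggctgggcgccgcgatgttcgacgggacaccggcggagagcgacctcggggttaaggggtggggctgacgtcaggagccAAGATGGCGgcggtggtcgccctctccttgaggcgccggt
SDHD (chr11:112086623-112086922, plus strand): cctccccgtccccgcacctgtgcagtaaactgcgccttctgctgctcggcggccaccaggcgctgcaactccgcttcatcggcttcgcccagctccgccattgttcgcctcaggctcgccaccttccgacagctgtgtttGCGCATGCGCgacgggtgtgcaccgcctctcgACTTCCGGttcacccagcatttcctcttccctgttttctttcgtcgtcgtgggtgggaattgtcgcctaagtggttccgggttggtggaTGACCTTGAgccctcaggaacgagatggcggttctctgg
ATP5O (chr21:33915755-33916054, minus strand): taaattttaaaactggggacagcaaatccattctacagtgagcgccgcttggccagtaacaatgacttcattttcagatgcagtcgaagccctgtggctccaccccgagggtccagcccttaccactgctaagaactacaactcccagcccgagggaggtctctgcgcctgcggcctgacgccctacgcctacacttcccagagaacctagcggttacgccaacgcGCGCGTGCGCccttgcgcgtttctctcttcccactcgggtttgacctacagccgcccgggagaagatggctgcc

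SDHA held 4 NRF1 matches, with first bases at -166, -117, -68 and -19 relative to the start site. SDHD held 1 at -110, an ETS-family match at -78 and an estrogen-related receptor match at 12, SDHB a YY1 match at 11, and ATP5O an NRF1 match at -24. SDHA and SDHD, shown because their values lay on opposite sides of vehicle, both held NRF1 matches. Whether a match bears on direction was not tested. Of the 15 members with an NRF1 match 12 had a lower mean with A7 (median -0.22), and of the 50 without 38 did (median -0.14), whereas with TPM both medians were positive (0.0047 and 0.084). A match is a run of letters and does not show binding. The NRF1 gene itself had 2.37 and 3.25 scaled FPKM with A7, against 2.35 and 1.76 with vehicle (0.32, SE 0.23, limma adjusted p = 0.823).

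Complex III passes electrons from ubiquinol to cytochrome c. The A7 mean was the lower one in 8 of 11 tested lines. Groups did not overlap for 4 lower lines and 1 higher line of the 11, against 18.6% and 18.3% of all genes. The median was -0.15, a sign that turned with TPM (0.071) and after quantile normalization (0.023). Without A7 replicate 2 the median was -0.071. The 4 lower lines without overlap were small accessory genes and a copy of one. The hinge protein UQCRH had 981 and 978 with A7, against 1083 and 1213 with vehicle (log2 difference -0.23, SE 0.12, limma adjusted p = 0.806), UQCR10 had 2703 and 2667 with A7, against 2861 and 3118 with vehicle, and UQCRQ had 879 and 784 with A7, against 904 and 944 with vehicle. Differences of UQCR10 and UQCRQ were both -0.15, and both were positive with TPM (0.071 and 0.070). UQCRHL, a copy of UQCRH with 97.9% identity over 85.4% of the transcript, had 807 and 825 with A7, against 876 and 941 with vehicle, and the summed pair was 1788 and 1802 with A7, against 1959 and 2154 with vehicle.

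The catalytic subunits and the core subunit UQCRC1 stood at lower levels, and their groups overlapped. Cytochrome c1 (CYC1) had 45.7 and 26.5 scaled FPKM with A7, against 46.1 and 33.3 with vehicle, and the replicates of each group differed more than the group means. The Rieske iron-sulfur protein (UQCRFS1) had 35.3 and 29.5 with A7, against 32.0 and 32.2 with vehicle, and UQCRC1 had 31.3 and 29.5 with A7, against 34.8 and 26.0 with vehicle. These 3 genes were named after their values were seen. The pseudogene UQCRBP1 was listed above its parent gene UQCRB, at 645 and 665 with A7 against 564 and 632 with vehicle, where UQCRB had 99.0 and 105 with A7 against 99.7 and 111 with vehicle. The log2 difference of UQCRBP1 was 0.13 (SE 0.12, limma adjusted p = 0.858). The transcripts are 95.3% identical over 94.4% of UQCRBP1, so the division of reads within the pair is uncertain, and the summed pair was 744 and 770 with A7, against 664 and 743 with vehicle.

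Cytochrome c (CYCS), the soluble carrier between complexes III and IV, had 40.0 and 45.0 scaled FPKM with A7, against 46.4 and 63.3 with vehicle. The groups did not overlap, but the vehicle libraries lay further apart than the groups' nearest values, and the log2 difference of -0.35 (SE 0.19, 95% interval -0.81 to 0.11) did not pass (limma adjusted p = 0.806). It was -0.12 with TPM and -0.24 after quantile normalization. Leaving out vehicle replicate 2 gave -0.13, and leaving out vehicle replicate 1 gave -0.57.

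Complex IV, cytochrome c oxidase, reduces oxygen at subunits encoded by mitochondrial DNA, which the nuclear subunits surround. Its nuclear genes held the most abundant members. COX6C had 34154 and 32869 scaled FPKM with A7, against 34756 and 37976 with vehicle, and made up 29.5% and 29.9% of the members' summed values with A7 and 29.3% and 28.9% with vehicle. In 10 of 13 tested lines the A7 mean was the lower one. Groups did not overlap for 5 lower lines and 1 higher line of the 13, against 18.6% and 18.3% of all genes. The complex had a median of -0.14 that turned to 0.085 with TPM and to 0.034 after quantile normalization. The median was -0.23 without vehicle replicate 1, -0.053 without vehicle replicate 2 and -0.083 without A7 replicate 2.

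COX5A, a subunit that faces the matrix, had 34.5 and 24.0 scaled FPKM with A7, against 18.4 and 19.7 with vehicle, 1.54-fold by the means of 29.3 ± 7.38 and 19.04 ± 0.889 (SD, n = 2 each). Both A7 libraries lay above both vehicle libraries, though they differed from each other by more than A7 replicate 2 differed from vehicle. The log2 difference of 0.57 (SE 0.20, 95% interval 0.08 to 1.07) had an unadjusted p of 0.0304 and a limma adjusted p of 0.806. It was the highest of the 85 members with all 4 libraries, but without A7 replicate 1 it was 0.32, below that of SDHA (0.49). The values rest on roughly 74 and 35 fragments with A7 and 20 and 21 with vehicle. COX5B, a zinc-binding subunit named after its values were seen, had 720 and 590 with A7, against 724 and 691 with vehicle.

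In each isoform family with a tissue-restricted form, the ubiquitous form was the abundant one. COX4I1 had 3196 and 3007 with A7, against 3482 and 3767 with vehicle (log2 difference -0.22, SE 0.12, limma adjusted p = 0.806, 0.00046 with TPM), while COX4I2, known from lung, was at 0 in all libraries. COX6A1 had 8829 and 8552 with A7, against 8982 and 10209 with vehicle, while the muscle form COX6A2 was at 0. COX6B1 had 1598 and 1455 with A7, against 1745 and 1802 with vehicle, and the testis form COX6B2 lay between 0 and 0.446. COX7A2 had 1490 and 1354 with A7, against 1528 and 1782 with vehicle, the muscle form COX7A1 was at 0, and COX7A2L, which joins complexes III and IV into supercomplexes, had 527 and 594 with A7, against 571 and 669 with vehicle. COX8A had 463 and 394 with A7, against 446 and 415 with vehicle, and the testis form COX8C was at 0. NDUFA4 had 280 and 257 with A7, against 266 and 331 with vehicle, and its paralog NDUFA4L2, known to respond to low oxygen, was at 0. A testis isoform that was listed above the minimum is COX7B2, named after its values were seen, at 14.7 and 9.97 with A7, against 16.1 and 8.68 with vehicle, beside COX7B at 1143 and 1004 with A7, against 1084 and 1317 with vehicle. Of the 6 isoform lines under the minimum, 5 were at 0 in every library.

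In complex V, the ATP synthase, each of the 18 tested lines was lower on average with A7, the groups did not overlap in 10 (18.6% of all genes), and the median was -0.22, whereas with TPM 9 of the 18 were lower (median 0.0021) and after quantile normalization 15 were (median -0.057). Vehicle replicate 2 was the highest library for 15 of the 18, and without it the median was -0.11. The median of complex V was the lowest of the 5 complexes with all 4 libraries, but without A7 replicate 1 that of complex IV was lower (-0.21, against -0.18).

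The c subunits form the rotor ring in the membrane, and ATP5G1, ATP5G2 and ATP5G3 encode the same mature protein with different import sequences. ATP5G1 had 429 and 431 scaled FPKM with A7, against 549 and 600 with vehicle, 0.748-fold by the means of 430 ± 1.68 and 575 ± 36 (SD, n = 2 each). Its log2 difference of -0.42 (SE 0.12, 95% interval -0.71 to -0.13) had an unadjusted p of 0.0129, the smallest of the members with all 4 libraries, and a limma adjusted p of 0.806. ATP5G2 had 705 and 675 with A7, against 783 and 904 with vehicle (-0.29, SE 0.13), and ATP5G3 had 58.6 and 58.4 with A7, against 62.6 and 64.3 with vehicle (-0.11, SE 0.13). All 3 were lower without overlap of the groups, as were 18.6% of all genes. ATP5G1 and ATP5G2 stayed lower with TPM (-0.19 and -0.062), whereas ATP5G3 turned positive (0.11).

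The stalk subunit ATP5O, the oligomycin sensitivity protein, had 484 and 486 with A7, against 563 and 659 with vehicle (log2 difference -0.33, SE 0.13, unadjusted p = 0.0463, limma adjusted p = 0.806). The difference was -0.10 with TPM and -0.21 without vehicle replicate 2. Its transcript is 99.9% identical over 71.0% of its length to AP000311.1, a GENCODE 29 gene not used here. ATP5C1, the gamma subunit that turns within the catalytic head, had 597 and 729 with A7, against 724 and 926 with vehicle, and the groups overlapped (-0.31, SE 0.17; -0.17 without A7 replicate 1, -0.13 without vehicle replicate 2). ATP5J2, the most abundant line of the complex, had 12342 and 10219 with A7, against 12640 and 13850 with vehicle (-0.24, SE 0.14). ATP5L, the subunit g of the membrane part, had a difference of -0.047 (SE 0.13), with 1010 and 1070 with A7, against 994 and 1160 with vehicle. The catalytic head genes ATP5A1 and ATP5B had 481 and 597 with A7 against 581 and 682 with vehicle, and 362 and 392 with A7 against 439 and 396 with vehicle. The delta subunit ATP5D was listed at 2.55 and 2.40 with A7, against 4.69 and 2.33 with vehicle, on roughly 3.1 to 6.7 fragments per library, and no difference was detectable at this depth. The pseudogene ATP5EP2 was listed above ATP5E, and the summed pair had 15347 and 14383 with A7, against 15238 and 17507 with vehicle. The transcripts are 96.15% identical over 100% of ATP5EP2, so the division of reads within this pair is uncertain. The copy ATP5L2 had 227 and 238 with A7, against 226 and 278 with vehicle. ATP5A1, ATP5B, ATP5D, ATP5EP2 and ATP5L2 were named after their values were seen.

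Levels of the subunits varied with annotated transcript length, taken as the median over a gene's GENCODE 29 coding transcripts. This median need not be the length of the transcript expressed. It was 703 bases over 12 transcripts for NDUFV1 and 1878 over 3 for ATP5E. The 62 tested subunit genes with a median coding transcript under 1000 bases had a median of 422 FPKM, and the 16 genes with longer transcripts had 45.5. The rank correlation of level and length across 78 genes was -0.37, and within complexes it was -0.39 across 37 genes of complex I, -0.16 across 12 of complex IV and -0.16 across 15 of complex V. The genes share the libraries and the authors' length correction, and the part of either in the relation was not tested.

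No gene of the lists of genes that assemble or serve the chain passed the limma test. Of 12 tested complex I assembly factors 8 had a lower mean with A7 (median -0.12, against 50.3% of all genes with a lower mean), of 3 for complex II 1 did (median 0.32), of 6 for complex III 5 did (median -0.19), of 22 for complex IV 15 did (median -0.10), and of 7 accessory genes of complex V 4 did (median -0.11). With TPM these medians were 0.093, 0.53, -0.00048, 0.11 and 0.11, in the order of complexes I to V. At an unadjusted p under 0.05, 5 of the 57 tested assembly, accessory and carrier genes were lower and 0 higher, against 3.55% and 2.21% of all genes. The 5 were BCS1L, MNF1, COA1, USMG5 and SLC25A5, with log2 differences of -0.48, -0.43, -0.39, -0.32 and -0.39. With TPM these were smaller, at -0.27, -0.20, -0.17, -0.098 and -0.16, and the count was not taken with that scaling. BCS1L, which inserts the Rieske protein into complex III, had 21.92 and 22.03 scaled FPKM with A7, against 30.1 and 32.2 with vehicle (log2 difference -0.48, SE 0.14, unadjusted p = 0.0131, limma adjusted p = 0.806). MNF1, an assembly factor of the same complex, had 240 and 193 with A7, against 268 and 314 with vehicle (-0.43, SE 0.16; -0.27 without A7 replicate 2). COA1, of complex IV assembly, had 80.6 and 92.4 with A7, against 110 and 117 with vehicle, and COA4 had 33.3 and 41.1 with A7, against 44.6 and 47.4 with vehicle. USMG5, a small subunit of the ATP synthase, had 483 and 454 with A7, against 544 and 631 with vehicle, and C14orf2, another, had 2073 and 2032 with A7, against 2325 and 2449 with vehicle.

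Among the complex II assembly factors, SDHAF2, which attaches the flavin to SDHA, had 51.7 and 55.6 with A7, against 66.1 and 64.6 with vehicle, and C6orf57, the older symbol of SDHAF4, which also acts on SDHA, had 22.3 and 25.9 with A7, against 17.7 and 20.3 with vehicle. NDUFAF7 had 7.15 and 10.5 with A7, against 12.5 and 10.6 with vehicle, and NDUFAF2 had 94.7 and 100 with A7, against 115 and 110 with vehicle. Of 17 citric acid cycle and pyruvate dehydrogenase genes 12 had a lower mean (median -0.096, 0.12 with TPM), with SUCLG1 at 191 and 196 with A7, against 225 and 241 with vehicle, and IDH3B at 11.3 and 9.33 with A7, against 16.6 and 12.3 with vehicle. Of 7 membrane carriers 5 had a lower mean (median -0.12, 0.098 with TPM). The ADP/ATP carrier SLC25A5 had 6461 and 7452 with A7, against 8263 and 9989 with vehicle (-0.39, SE 0.15, unadjusted p = 0.0399, limma adjusted p = 0.806; -0.25 without vehicle replicate 2), and VDAC3 had 89.2 and 106 with A7, against 113 and 128 with vehicle. Of the tested regulators of mitochondrial biogenesis, 4 of 10 were lower on average with A7 (median 0.067, 0.21 with TPM). TFB1M, a mitochondrial rRNA methyltransferase, had 6.25 and 6.28 with A7, against 7.10 and 7.90 with vehicle.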

How the data were processed

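RNA of 4 samples was made into cDNA with a SMARTer kit and sequenced, per the labels' protocols, which name no step that marks the strand. The authors deposited FPKM, 1 table per library, per the file headers. The submitters' processing notes name build GRCh37, Cufflinks 2.2.1, CASAVA 1.8.2 and TopHat, without role or order and without TopHat's version, and the annotation is not given in the sources used here. Since FPKM hold no read numbers, count models were not applied. Of 23619 lines 14 had a number as symbol (at most 0.00539% of a library's FPKM) and were left out. The scaling factor of a library was the median of its ratios to each gene's geometric mean over the 4 libraries. A mean FPKM of at least 1 was reached by 8952 genes, and limma 3.58.1 (R 4.3.3) was fitted to them (eBayes with trend, 2 residual and 3.89 prior degrees of freedom) as A7 minus vehicle on log2(scaled FPKM + 1). Tests were two-sided, with Benjamini-Hochberg adjustment over these genes, and 0.05 was the threshold. The added 1 makes differences of low genes too small. An exact permutation test of 2 against 2 libraries cannot go below p = 0.333 and was not used. Depth was estimated from the lowest values of genes with 1 transcript length in GENCODE 29, and a member's fragments from its FPKM, that depth and its median coding transcript length less 150 bases. Such estimates are rough. Some single genes are not reported here. Members and lists were chosen with earlier results of these data known. Genes named are, per complex, the most abundant, the 4 with the smallest p and the highest and lowest difference, with complex II, CYCS, isoform families and 2 genes per list. A search of GENCODE 29 transcripts for copies (blastn 2.17.0, at least 95% identity over at least 50% of the transcript) found one for 13 of 86 members searched. RefSeq names matched 91 of 92 members. Alternatives were another pseudocount (0.1), no filter, unscaled FPKM, TPM, quantile normalization, no trend, a replicate block and leaving out each library.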

Additional observations from a re-analysis of the deposited data

How the results depend on the processing

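No member and no gene of the pathway lists passed under any of the 11 other settings named above. Over all genes, 2 passed as reported, 1 with a pseudocount of 0.1, 1 without the variance trend, 0 with no filter, 0 with the replicate number as a block, and 7 to 11 when a library was left out (10 without A7 replicate 1, 11 without A7 replicate 2, 7 without vehicle replicate 1 and 9 without vehicle replicate 2), where the lone library of a group is assumed to vary like the other group. Same-numbered libraries deviated together only weakly (r = 0.0906 across genes), and no label ties the numbers to shared cultures.

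With TPM the medians were 0.076 for all members, 0.088 for complex I, 0.26 for complex II, 0.071 for complex III, 0.085 for complex IV and 0.0021 for complex V, against a median of 0.17 over all genes. After quantile normalization they were 0 for all members, 0.0017 for complex I, 0.023 for complex III, 0.034 for complex IV and -0.057 for complex V. TPM divides each value by its library's summed FPKM, which was 1189056 and 1192830 with A7, against 1324082 and 1473540 with vehicle. It thereby raises A7 values against vehicle values. Why the sums differed, and what caused the turns after quantile normalization, was not tested. At an unadjusted p under 0.05, 3 members were lower and 1 higher as reported (3.55% and 2.21% of all genes), 0 and 7 with TPM (1.07% and 8.0%), 0 and 6 after quantile normalization (2.94% and 2.33%), 7 and 1 with no filter (3.64% and 2.09%), and 14 and 2 with the replicate block (6.41% and 3.22%). When a library was left out, the medians ranged from -0.22 to -0.066 for all members, from -0.23 to -0.052 for complex I, from -0.072 to 0.15 for complex II, from -0.14 to -0.071 for complex III, from -0.23 to -0.053 for complex IV and from -0.28 to -0.11 for complex V. The low end came without vehicle replicate 1 and the high end without vehicle replicate 2 for all members and complexes I, IV and V, and for complex II the low end came without A7 replicate 2. Leaving out copies, read-through and antisense transcripts, chosen after seeing the data, gave -0.15 for all members.

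Leaving out a library moved the difference of 32 of the 48 named genes by over 1.5 times. Beside a shift of the median of all genes to 0.17, TPM turned the sign of ATP5G3 (0.11), ATP5L (0.18), COX4I1 (0.00046), COX6A1 (0.085), COX6B1 (0.0068), COX6C (0.11), COX7A2 (0.0087), COX7A2L (0.082), COX8A (0.21), NDUFA4 (0.079), NDUFB9 (9.01e-05), SDHC (0.13), UQCR10 (0.071), UQCRHL (0.071), UQCRQ (0.070), C14orf2 (0.0071) and NDUFAF2 (0.022). Quantile normalization turned ATP5L (0.13), COX6B1 (0.0084), COX6C (0.15), COX7A2L (0.031), COX8A (0.15), NDUFB9 (0.0070), SDHC (0.046), UQCR10 (0.0091) and UQCRHL (0.043). Leaving out a library turned SDHC without A7 replicate 1 (range -0.27 to 0.086), COX8A without A7 replicate 2 (range -0.13 to 0.11) and without vehicle replicate 1 (0.040), NDUFV1 without vehicle replicate 1 (range -0.033 to 0.58), and ATP5L (range -0.16 to 0.065) and NDUFA4 (range -0.30 to 0.012) without vehicle replicate 2. Under roughly 100 fragments in some library stood behind 18 of 79 members with an estimate.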
